A study of Homo sapiens with 12 samples.

Results

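Among genes around RIPK2 and NF-kB in PANC-1 cells, RIPK2 and the acute-phase gene SAA1 had higher array signals with a hairpin against TIMP1. The comparison was with vector control cells. Adjusted p was close to 0.05 (limma, 0.0403 for RIPK2 and 0.0444 for the brightest SAA1 probe). Each of these calls was lost in 15 of 24 alternative analyses. A second SAA1 probe was also higher but did not pass (limma, adjusted p = 0.0992). Whether the SAA1 probes also bind SAA2 was not tested. TIMP1 itself had a log2 difference of -0.19, which did not pass (limma, adjusted p = 0.101). The signals of the NF-kB feedback genes NFKBIA and NFKB1 and of the target gene SOD2 differed by less than the spread of the arrays. The dimmer feedback genes TNFAIP3, RELB and NFKB2 had log2 differences of 0.23, 0.20 and 0.13 to 0.19, none with an adjusted p under 0.05 (limma). Their 95% confidence intervals were wide and included the difference of RIPK2. The set comprised 10 of the 20046 genes named on the array: NOD1, RIPK2, NFKB1, NFKB2, RELB, NFKBIA, TNFAIP3, SOD2, SAA1 and SAA2. Its members were the 16 probes, of 47323 on the array, that carry one of these gene symbols. The genes were chosen with the difference between the groups already known, so it is described here for each gene and is not evidence of a response of the set.

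PANC-1 cells are a long-established human line that was derived from a pancreatic ductal carcinoma. Total RNA of 6 control and 6 knockdown samples was measured on 12 Illumina bead arrays. Control cells carried an integrated pLKO.1 puro lentiviral vector, for which the design text names no hairpin, and are called WildType in the titles. Knockdown cells carried the pLKO.1 vector with a short hairpin RNA against human TIMP1, a secreted inhibitor of matrix metalloproteinases. Cells of both groups were cultured in medium with serum and puromycin, and no gemcitabine or cytokine treatment is given for either. The labels give 1 hairpin construct and do not say whether the cells were a pool or a clone, nor whether the 6 replicates came from separate cultures, so any p-value reflects only how far these samples scattered, possibly for technical reasons.

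NF-kB is a family of dimeric transcription factors that are held in the cytoplasm by inhibitory IkB proteins until a kinase complex marks the inhibitor for degradation. NOD1 is a cytoplasmic sensor of bacterial peptidoglycan fragments and RIPK2 is the adaptor kinase through which it reaches that complex. Once active, NF-kB raises the transcription of its own inhibitors and subunits as well as of target genes such as SOD2 and SAA1, which is why the first group is called its feedback genes.

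TIMP1, the target of the hairpin, had a log2 intensity of 13.75 ± 0.07 (SD, n = 6) in the controls against 13.56 ± 0.06 (n = 6) with the hairpin. Before normalisation the groups overlapped, with a lowest control signal of 12620 and a highest knockdown signal of 13190. After it they did not, and the difference of -0.19 did not pass (limma, adjusted p = 0.101). The number of probes detected (detection p under 0.05) ranged from 15681 to 16565 on the control arrays and from 15898 to 17680 on the knockdown arrays, with the highest numbers on knockdown 6 (17680) and knockdown 2 (17360). Of the ductal and epithelial markers KRT7, KRT8, KRT18, KRT19, EPCAM and CDH1, 5 of 6 were detected and CDH1 was not. Of 8 leukocyte markers 3 were detected (CD14, CD68 and AIF1), and the pan-leukocyte marker PTPRC was not. The summed signal of these 3 ranged from 2580 to 3007 over the controls and from 2706 to 3210 over the knockdown arrays, so the groups overlapped. Of 6 hepatocyte markers only ALB was detected, and of 7 fibroblast and endothelial markers only PECAM1. The part of these markers in any difference below was not tested.

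Of the 16 member probes, 11 were detected on at least 6 of the 12 arrays, which is the filter for entering the fit, and they covered 8 of the 10 genes. The other 5 were detected on no array. These were the single probes of NOD1 and SAA2 and 1 of 3 probes each of SAA1, NFKB2 and SOD2. In the fit over all 16495 detected probes 2 member probes had an adjusted p under 0.05 (limma, Benjamini-Hochberg over all of these probes), 1 of RIPK2 and 1 of SAA1, both higher. Over all detected probes 0.303% were past that threshold in either direction and 0.255% were past it and higher. For 3 member probes the 6 knockdown arrays did not overlap the 6 controls, all of them higher. Of all detected probes 1.56% were separated in this way in either direction and 1.02% with the knockdown higher. Since the genes were chosen on this contrast, nothing is read from these shares.

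RIPK2, on chromosome 8, was represented by 1 probe, ILMN_1758939. Its signal before normalisation was 1647 at the lowest, 1740 at the median and 1951 at the highest over the 6 controls. On the knockdown arrays these values were 2013, 2166 and 2388. Every knockdown array lay above every control, control 4 being highest among the controls and knockdown 1 lowest in its own group. After normalisation its log2 intensity was 10.66 ± 0.09 (SD, n = 6) in the controls and 10.96 ± 0.08 (n = 6) in the knockdown. The log2 difference was 0.30 ± 0.05 (SE; 95% confidence interval 0.19 to 0.41), or 1.23-fold on the linear scale. The gap between the highest control and the lowest knockdown array was 0.09, against a range of 0.23 within each of them. In bulk RNA of this kind a larger share of cells with the transcript and more transcript per cell cannot be told apart.

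SAA1, on chromosome 11, encodes serum amyloid A, a secreted apolipoprotein made in bulk by the liver during the acute phase. Its brightest probe, ILMN_2304512, had signals of 1851, 1977 and 2107 (lowest, median and highest) in the controls and of 2211, 2549 and 2905 in the knockdown. The groups did not overlap, with control 4 and control 6 highest among the controls before normalisation and knockdown 1 lowest in the knockdown. Its log2 intensity was 10.86 ± 0.07 (SD, n = 6) against 11.20 ± 0.13 (n = 6), a log2 difference of 0.35 ± 0.06 (SE; interval 0.21 to 0.48).

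A second SAA1 probe, ILMN_1701017, also separated the groups. Its signals were 709.7, 775.7 and 864.6 in the controls and 905.1, 946.9 and 1214 in the knockdown. Knockdown 2 and knockdown 6 stood above the other 4 knockdown arrays on this probe, at log2 intensities of 9.99 and 9.91 where the others lay between 9.51 and 9.65. The log2 difference was 0.40 ± 0.09 (SE; interval 0.20 to 0.59), and it became 0.27 without those 2 arrays. The difference on the first probe without them was 0.30 and that of RIPK2 was 0.29.

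The third SAA1 probe, ILMN_1808732, gave no detected signal. It ranged from 174 to 208.4 in the controls and from 186.4 to 217.4 in the knockdown, with detection p between 0.0818 and 0.349. SAA2, a near-identical neighbour of SAA1 on the same chromosome, had 1 probe, which ranged from 159.6 to 188.4 in the controls and from 176.7 to 215.4 in the knockdown and was detected on no array. SAA1 and SAA2 transcripts share most of their sequence, and whether the probes annotated to SAA1 also bind SAA2 was not tested. The higher values are therefore those of SAA1 probes and cannot be assigned to 1 of the genes with certainty.

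**Figure D1:**
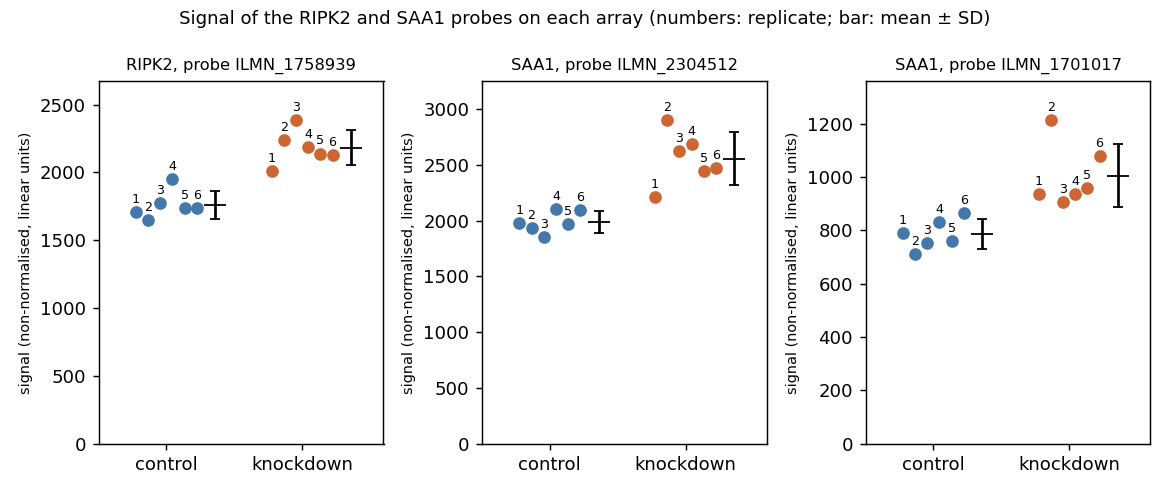
Signal before normalisation (vertical axis, linear units, from 0) of the RIPK2 probe and of both detected SAA1 probes on the 6 control and 6 knockdown arrays. Points are arrays with their replicate number, and the black mark is the mean ± SD. On all 3 probes the lowest knockdown array lies above the highest control, by 2013 to 1951 for RIPK2, and knockdown 2 is the highest array on both SAA1 probes.

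NOD1, on chromosome 7, gave no detected signal in either group, so the sensor upstream of RIPK2 has no measured level here. Its 1 probe ranged from 152.3 to 182.7 in the controls and from 150.1 to 185.7 in the knockdown. Detection p lay between 0.251 and 0.64 over the 12 arrays.

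The calls of RIPK2 and of the first SAA1 probe were close to the threshold. The adjusted p from limma was 0.0403 for RIPK2 and 0.0444 for ILMN_2304512, and it was 0.0992 for ILMN_1701017, which did not pass. That probe passed with a stricter detection filter (adjusted p = 0.0412) and with an intensity trend and robust fit (adjusted p = 0.0417). For RIPK2 it lay between 0.0601 and 0.0954 when any single one of control 1 to 5 or knockdown 2 to 6 was left out. Without control 6 it was 0.0466 and without knockdown 1 it was 0.0122. For ILMN_2304512 the corresponding values were 0.0864 to 0.121, 0.0466 and 0.00766. With the number of detected probes as a covariate they were 0.427 for RIPK2 and 0.456 for ILMN_2304512, with log2 differences of 0.29 and 0.28.

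Promoters of 4 feedback genes hold matches to the binding motif of NF-kB itself, and these stretches are shown for that reason. Promoters of 300 bases (250 before the start of the transcript and 50 after it) were taken from RefSeq on GRCh38.p14, where 12 promoters of 6 of the 10 genes were matched. Promoters of RIPK2, SAA1, SAA2 and RELB were not analysed here. The kB consensus, a motif of 10 bases, was searched on both strands. It matched in 5 of the 12 promoters and in 4 of the 6 genes: NFKBIA, NFKB1, NFKB2 and TNFAIP3. A match was held by 11.3% of all 35116 promoters listed and by 13.3% of their 27305 genes in at least 1 promoter. The stretches are written 5′ to 3′ on the strand of the gene from 20 bases before the first match to 20 after the last, with the matches in capitals.
NFKBIA, chr14:35404801-35404850, minus strand: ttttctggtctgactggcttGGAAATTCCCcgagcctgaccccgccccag
NFKB1, chr4:102501290-102501339, plus strand: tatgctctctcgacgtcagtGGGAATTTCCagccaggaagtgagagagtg
NFKB2, chr10:102394451-102394529, plus strand: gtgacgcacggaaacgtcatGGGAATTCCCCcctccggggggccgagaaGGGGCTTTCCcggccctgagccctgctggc
TNFAIP3, chr6:137867172-137867233, plus strand: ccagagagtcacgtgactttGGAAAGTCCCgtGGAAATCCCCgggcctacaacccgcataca

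In NFKBIA the match spanned bases -81 to -72 from the start, and in NFKB1 it spanned -49 to -40. TNFAIP3 had a pair of matches on the opposite strand, at -67 to -58 and at -55 to -46. In the NFKB2 stretch the first block of capitals held 3 matches that overlap one another. Bases -107 to -98 are their own reverse complement and were counted once on each strand. Bases -106 to -97 matched on the opposite strand. A later NFKB2 start, not printed, had matches at -176 to -167 on both strands and at -21 to -12. None of the 4 SOD2 promoters and not the NOD1 promoter held a match. A match is a string of letters, and binding was not measured in these samples.

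**Figure D2:**
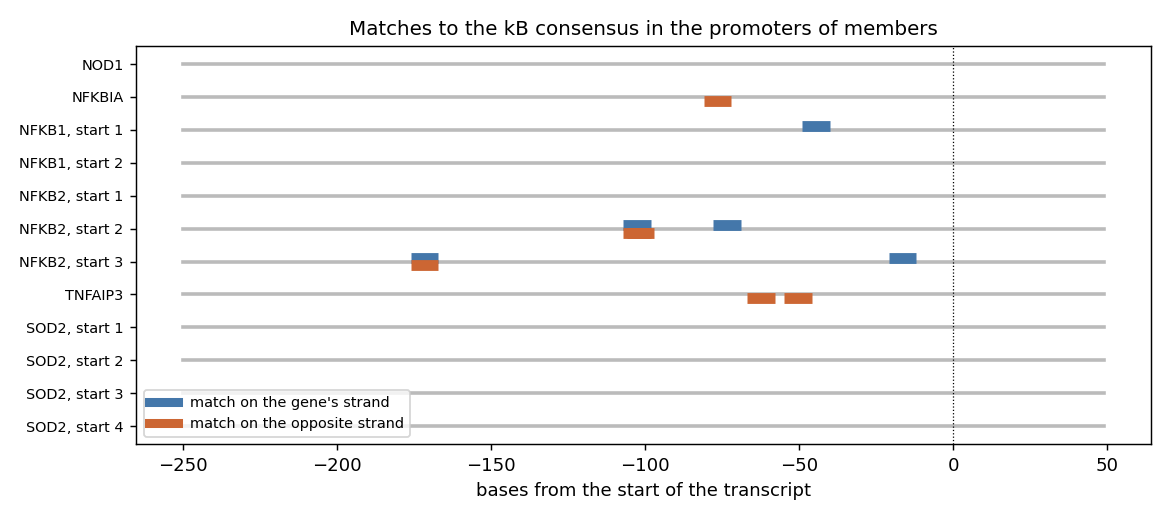
Positions of matches to the kB consensus (coloured blocks) in the 12 promoters of 6 members, along the distance in bases from the start of the transcript (horizontal axis); grey lines span the 300 bases searched, and starts are numbered by position on the chromosome. NFKBIA, TNFAIP3, 1 start of NFKB1 and 2 of NFKB2 carry matches, while the 4 SOD2 starts and NOD1 carry none.

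NFKBIA, on chromosome 14, encodes IkB-alpha, the inhibitor that NF-kB makes anew after activation. Its signal was 6871, 7681 and 8289 (lowest, median and highest) in the controls and 7282, 7450 and 8333 in the knockdown. The groups overlapped, and after normalisation knockdown 2 and knockdown 6 were the highest of the 12 arrays. The log2 difference was -0.01 ± 0.05 (SE), with a 95% interval of -0.12 to 0.10. A difference as large as that of RIPK2 lay outside this interval.

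TNFAIP3, on chromosome 6, encodes A20, a ubiquitin-editing enzyme that damps NF-kB signalling downstream of tumour necrosis factor and NOD receptors. It was dim, with signals of 322.4, 332.3 and 375.7 in the controls and of 338.2, 360.7 and 385.1 in the knockdown. Before normalisation knockdown 1, 2, 3 and 6 lay below the highest control signal of 375.7, with knockdown 6 at 350.1. After normalisation knockdown 6 was the highest of the 12 arrays, and 5 knockdown arrays lay above all 6 controls. These 5 lay between 7.70 and 7.86 on the log2 scale, while the controls reached 7.67. Knockdown 1, at 7.30, lay below every control. The log2 difference was 0.23 ± 0.09 (SE; interval 0.03 to 0.42), and the adjusted p of 0.296 from limma did not pass. The difference became 0.12 without background correction, 0.30 without knockdown 1 and 0.17 without knockdown 2 and 6. With the number of detected probes as a covariate the difference was 0.07.

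NFKB1, on chromosome 4, encodes p105, which is processed to the subunit p50 and also acts as an inhibitor. Its signals were 4169, 4608 and 4817 in the controls and 4468, 4608 and 4932 in the knockdown. The medians were alike and the groups overlapped. The log2 difference was -0.01 ± 0.04 (SE; interval -0.10 to 0.08).

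NFKB2, on chromosome 10, encodes p100, the precursor of p52 and the inhibitor of the non-canonical pathway. Its probe ILMN_1799062 had signals of 320.7, 346.9 and 398.1 in the controls and of 338.9, 360.5 and 433 in the knockdown. The second detected probe, ILMN_2390859, had 285.1, 319.5 and 357.1 in the controls and 298.8, 318.9 and 378.3 in the knockdown. On both probes the groups overlapped, and after normalisation knockdown 2 and 6 were the highest of the 12 arrays. The log2 differences were 0.19 ± 0.14 and 0.13 ± 0.15 (SE), and without those 2 arrays they were -0.00 and -0.04. The third probe, ILMN_2247868, was detected on no array, with signals from 134.6 to 200.1.

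RELB, on chromosome 19, encodes the partner of p52 in the non-canonical dimer. It was detected on 5 of 6 control and 5 of 6 knockdown arrays, close to the background. Its signals were 263, 270.4 and 284.2 in the controls and 270.3, 285.5 and 300.9 in the knockdown. The groups overlapped, and after normalisation knockdown 6 was the highest and knockdown 1 the lowest of all 12 arrays, at 7.44 and 6.63. The log2 difference was 0.20 ± 0.12 (SE; interval -0.06 to 0.45). Omitting the background correction gave 0.10, leaving out knockdown 2 and 6 gave 0.09, and taking the number of detected probes as a covariate gave -0.02.

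SOD2, on chromosome 6, encodes the mitochondrial manganese superoxide dismutase and is a standard target of NF-kB. Probe ILMN_2336781 had signals of 3259, 3781 and 4291 in the controls and of 3631, 3847 and 4361 in the knockdown. Probe ILMN_2406501 had 809.5, 938.6 and 1078 in the controls and 898.8, 949.7 and 1130 in the knockdown. The groups overlapped on both, and the log2 differences were 0.02 ± 0.06 and 0.02 ± 0.08 (SE). The intervals, -0.11 to 0.16 and -0.15 to 0.18, did not reach the value of RIPK2. The third probe, ILMN_1792922, was detected on no array.

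**Figure D3:**
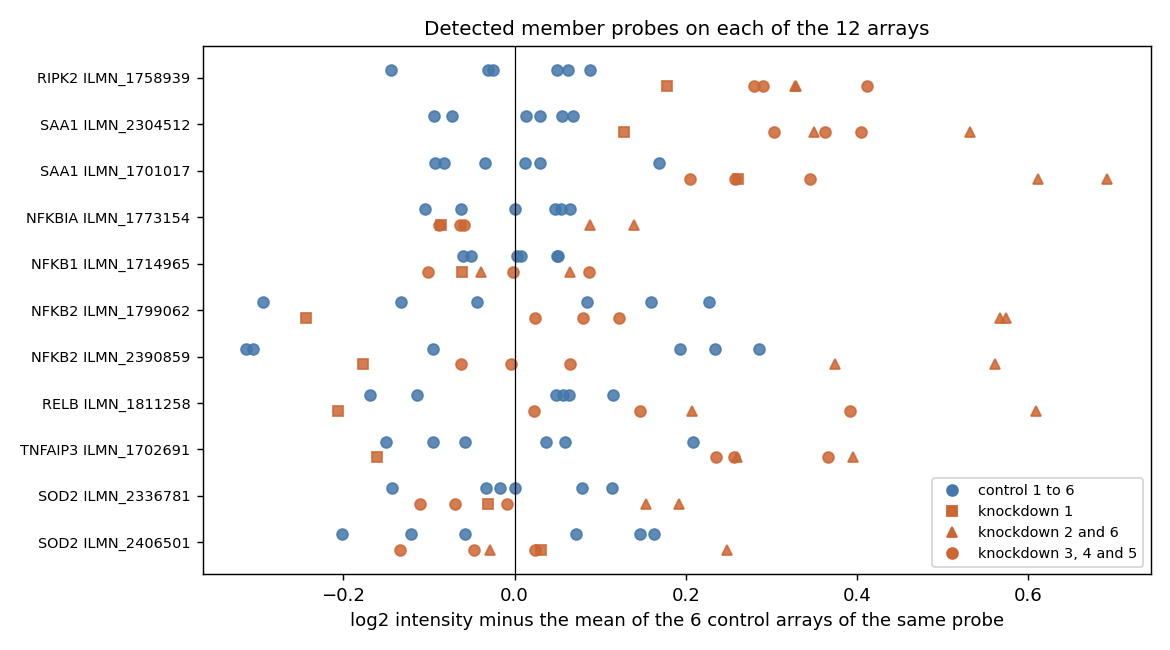
Log2 intensity of each of the 11 detected member probes on each array, minus the mean of the 6 controls for the same probe (horizontal axis); blue marks are controls and orange marks are knockdown arrays, with knockdown 1 as a square and knockdown 2 and 6 as triangles. For RIPK2 and both SAA1 probes all orange marks lie right of the blue ones, while for the other 8 probes they overlap.

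Among the 11 detected probes 9 had a log2 difference above 0 and 2 below it, with a median of 0.19. The median over all detected probes was 0.01 and 53.5% of them were above 0. By the brightest probe of each gene, 6 of the 8 detected members were above 0. Since the genes were chosen with this contrast known, nothing is read from the comparison. After normalisation the arrays with the highest numbers of detected probes, knockdown 2 and 6, were both among the 3 highest on 8 of the 11 probes. Knockdown 1 was the lowest knockdown array on 6. Without knockdown 2 and 6 the number of probes above 0 was 5 of 11. With the number of detected probes as a covariate it was 4 of 11. The part of these arrays and of the number of detected probes in the differences was not tested further. RIPK2 and both SAA1 probes stayed above 0 under 24 alternatives. Their groups did not overlap, so leaving out arrays could not change this sign, and nothing is read from it. The calls of RIPK2 and ILMN_2304512 were each lost in 15 of the 24. Differences ranged from 0.27 to 0.44 for RIPK2, 0.28 to 0.48 for ILMN_2304512 and 0.27 to 0.53 for ILMN_1701017. The upper ends came from median scaling in place of quantile normalisation, under which the median difference of all detected probes was 0.12. Relative to that median RIPK2 had 0.32, ILMN_2304512 had 0.37, ILMN_1701017 had 0.41, NFKBIA had -0.00 and NFKB1 had 0.00.

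**Figure D4:**
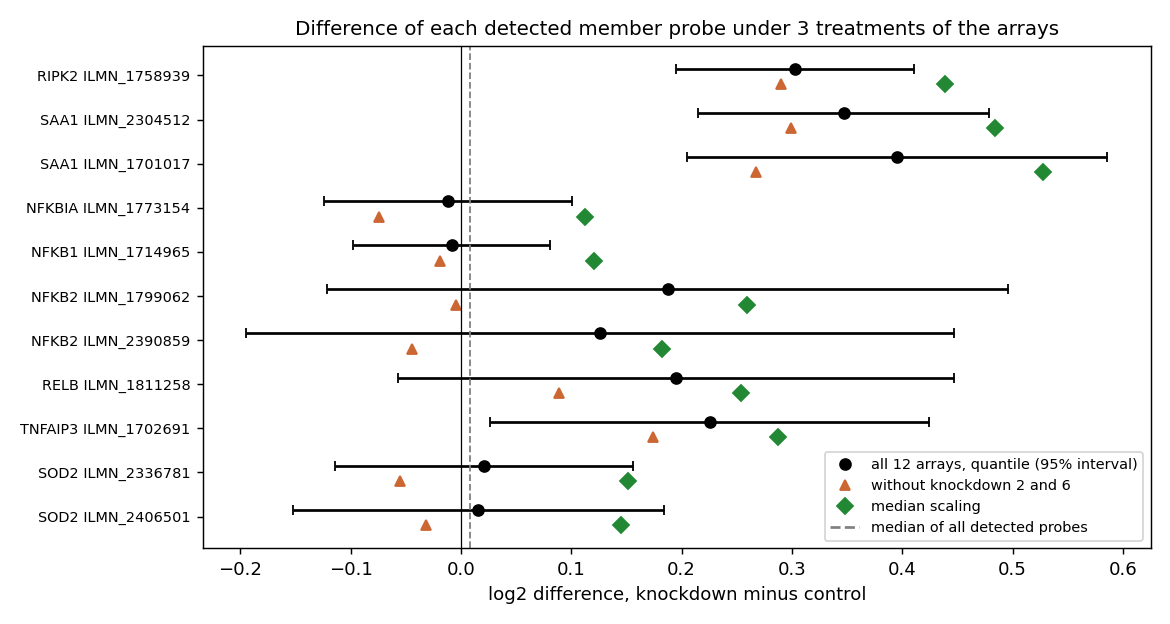
Log2 difference, knockdown minus control (horizontal axis), of each detected member probe with all 12 arrays (black, with the 95% confidence interval), without knockdown 2 and 6 (orange triangles) and with median scaling (green diamonds); the dashed line is the median of all detected probes, 0.01. RIPK2 and SAA1 stay right of 0 in all 3, and both NFKB2 probes move to 0 or below without knockdown 2 and 6.

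The genes whose log2 intensity followed RIPK2 most closely over the 12 arrays, among the brightest probes of 9488 other named genes, were SPRR2F (Pearson r = 0.93), SPRR2A (0.92), PPP6C (0.92), S100A9 (0.92) and KANK1 (0.91). SPRR2A and SPRR2F encode small proline-rich proteins of the cornified envelope, S100A9 a subunit of calprotectin, and PPP6C the catalytic subunit of a protein phosphatase. SPRR2A was detected on 2 of 6 control arrays. All 5 had a log2 difference above 0, from 0.16 for PPP6C to 1.07 for SPRR2A. Since the RIPK2 groups did not overlap, ranking by this r itself favours genes that were higher in the knockdown. Nothing is therefore read from their direction. After each group's mean was subtracted the closest genes were UBLCP1 (0.92), TEX10 (0.88), PRELID3B (0.88), NUP62 (0.86) and NDUFB10 (0.85). The first SAA1 probe had an r of 0.89 with RIPK2 over the 12 arrays and of 0.51 after the group means were subtracted. For the second SAA1 probe, ILMN_1701017, these values were 0.77 and 0.19. Of the member probes TNFAIP3 had the highest r with RIPK2 after the subtraction, 0.56. These values come from arrays that share their normalisation, and they are descriptions without a test.

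Other genes of the same pathways were taken from 9 lists of 140 genes, of which 91 were detected. None of the 91 passed the threshold in either direction (limma, adjusted over all detected probes), where 0.389% of all detected genes did, by the brightest probe of each. At an unadjusted p under 0.05 there were 11 of 91, 8 higher and 3 lower, against 1465 of the 9780 detected genes (15%). Of the 91, 48 lay above 0 and 43 below, where 57.1% of all detected genes lay above. Their median log2 difference was 0.01 and that of all detected genes was 0.02. For none of the 91 were the groups free of overlap, where this held for only 187 of the 9780 detected genes.

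Between receptor and kinase complex, 11 of 20 NOD and RIPK2 signalling genes were detected, with a median log2 difference of 0.05 and 9 above 0. NOD2, the sister sensor of NOD1, was among those not detected. BIRC2, a ubiquitin ligase that modifies RIPK2 complexes, had 0.09 ± 0.05 (SE; adjusted p = 0.375) and RNF31, the catalytic subunit of the linear ubiquitin ligase, had 0.16 ± 0.08 (adjusted p = 0.387). Of the kinase complex that releases NF-kB and its non-canonical counterparts 7 of 9 genes were detected, and their differences stayed between -0.05 and 0.08, with TANK at 0.08 and AZI2 at 0.05. Of the upstream receptors and adaptors 12 of 20 were detected. Among them TNFRSF1B, a receptor of tumour necrosis factor, had 0.11 ± 0.05 (adjusted p = 0.323) and TLR4, the receptor of endotoxin, had 0.14 ± 0.07 (adjusted p = 0.343). Of the other RIP kinases and NOD-like receptors only DSTYK, NLRP3 and RIPK4 were detected of 12. DSTYK had -0.07 and NLRP3, detected on 3 of 6 arrays in each group, had -0.04.

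Of the other Rel and IkB proteins 6 of 7 were detected. NFKBIE, which encodes IkB-epsilon, had the highest difference above 0 in the 9 lists, 0.37 ± 0.11 (SE; adjusted p = 0.185), from 6.95 ± 0.10 (SD, n = 6) in the controls to 7.32 ± 0.26 (n = 6), and the groups overlapped. NFKBID had 0.19 and was detected on 1 of 6 control and 5 of 6 knockdown arrays. Of the other feedback inhibitors 9 of 12 were detected, with a median of 0.01. ZC3H12A, an RNase that degrades inflammatory transcripts, had -0.09 ± 0.05 (adjusted p = 0.465), and the deubiquitinase OTUD7B had 0.26 ± 0.17 (adjusted p = 0.51).

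Of the other NF-kB targets 20 of 24 were detected, 11 above and 9 below 0, with a median of 0.01. The cytokine IL1B had 0.23 ± 0.08 (adjusted p = 0.23) and the chemokine CCL20 had 0.27 ± 0.11 (adjusted p = 0.31). Of the acute-phase proteins and their regulators 13 of 23 were detected, 4 above and 9 below 0, with a median of -0.04. OSMR, the receptor of oncostatin M, had 0.25 ± 0.06 (adjusted p = 0.138). It alone of the 91 genes passed under 1 alternative, without knockdown 1 (0.29, adjusted p = 0.0327). Under that alternative 145 of all 16495 detected probes passed, against 50 with all 12 arrays, so little is read from 1 gene of 91. CFB, complement factor B, had the lowest value of the 9 lists at -0.55 ± 0.15 (adjusted p = 0.176), from 9.19 ± 0.38 (SD, n = 6) to 8.65 ± 0.16 (n = 6). Of the other superoxide dismutases and peroxide enzymes 10 of 13 were detected, with a median of -0.03. TXN2, mitochondrial thioredoxin, had -0.31 ± 0.14 (adjusted p = 0.356) and PRDX4 had 0.06 ± 0.04.

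**Figure D5:**
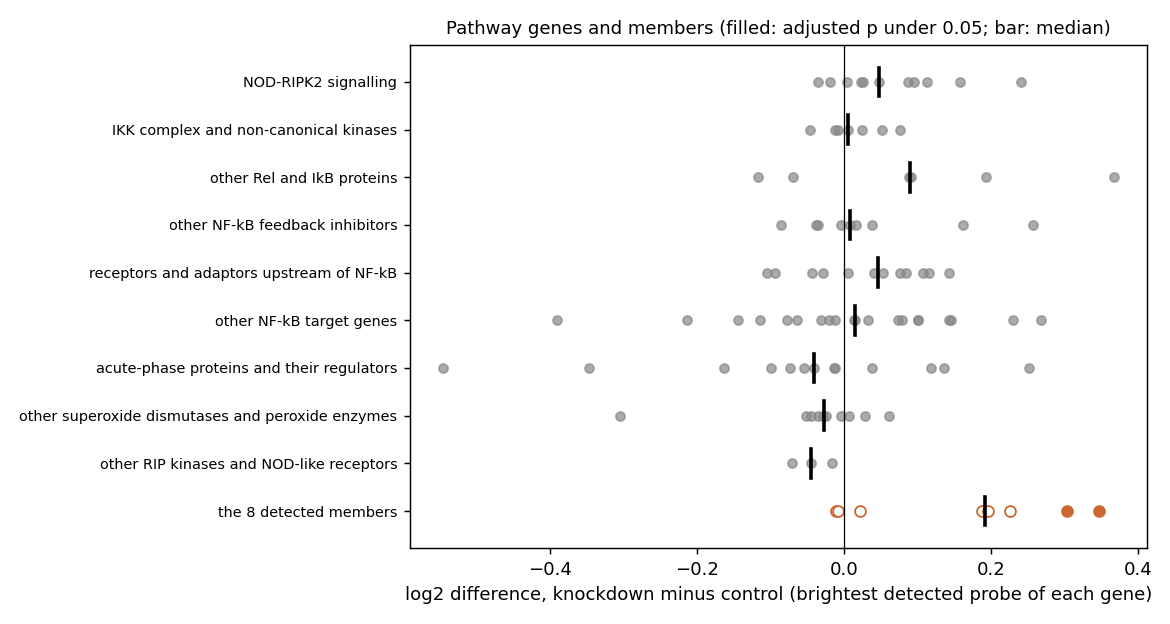
Log2 difference, knockdown minus control (horizontal axis), of the brightest detected probe of each gene in the 9 pathway lists (grey points) and of the 8 detected members (orange; filled where the adjusted p was under 0.05); black bars are medians. The 2 filled points are RIPK2 at 0.30 and SAA1 at 0.35, and none of the 91 grey points passed the threshold.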

How the data were processed

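Per the file headers, the authors deposited for each probe and array its signal intensity, on a linear scale and not normalised, with a detection p-value. The authors' processed table held intensity values that equalled a quantile normalisation of that signal to within 3.33e-06. Its direction and linear scale follow from that match. Per the submitters' processing notes limma was used, for a step not given in the sources used here. Signals were corrected and quantile normalised with neqc in limma 3.58.1 (R 4.3.3; offset 16, log2). Probes with detection p under 0.05 on at least 6 of 12 arrays were fitted with lmFit and eBayes on group alone, adjusted by Benjamini-Hochberg over all 16495, two-sided. Symbols came from the platform annotation, updated through RefSeq (GRCh38.p14). Named genes were the members, up to 2 genes with the smallest p per list, the 5 most like RIPK2 by each measure (provisional symbols left out) and TIMP1. Members, lists and alternatives were chosen with earlier results of these data known. On simulated data for this comparison over 16495 probes, 5 of 40 changes of 0.2 and 28 of 40 of 0.4 were recovered. There were 2 false calls. Noise was drawn independently for each probe, without deviations shared by a whole array, so these counts need not hold for the real arrays. Figures used matplotlib 3.10.9.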

Additional observations from a re-analysis of the deposited data

Results flagged for a closer look

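In the knockdown group of TNFAIP3 (probe ILMN_1702691) 1 array lay far from the other 5 after normalisation. Before it, the signal of knockdown 1 was 338.2, the next lowest 350.1 and the highest 385.1. Knockdown 1 had a log2 intensity of 7.30, and the next lowest array had 7.70, a gap of 0.713 of the group's whole range. Of 24 groups of 6 arrays examined in this way 1 was marked, and chance marks about 1 in 20.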

How the results depend on the processing

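The number of probes past the threshold, 50 with the settings of the report, was 32 with cyclic loess, 11 with median scaling, 11 without a detection filter, 28 with the replicate number as a block, 90 with an intensity trend and a robust fit, 1 at a threshold of 0.01, 0 with the number of detected probes as a covariate (1152 at an unadjusted limma p under 0.05), 2 without knockdown 2 and 6, and 1 to 145 when 1 array was left out. The member probes past it, 2 in the report, were 0 with median scaling, without a detection filter, with the replicate block, at 0.01, with the covariate and without knockdown 2 and 6, and 0 to 2 when 1 array was left out. They were 3 with the stricter detection filter and with the intensity trend and robust fit, where the second SAA1 probe also passed. They were probes of RIPK2 and SAA1 in each setting where any passed. The member probes above 0, 9 of 11, were 5 of 7 with the stricter filter, 4 with the covariate, 5 without knockdown 2 and 6, and 7 to 11 when 1 array was left out. Pathway genes past the threshold were 0 to 1 when 1 array was left out and 0 otherwise. The causes were not tested. Same-numbered arrays deviated together with correlations of -0.11 to 0.19, so the numbers were not taken as pairs, and not every array correlated best with its own number. Signals near background limit NFKB2, RELB and TNFAIP3, whose differences were smaller without background correction.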
